A study of Mus musculus with 18 samples.

Results

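The genes described here build the axoneme of motile cilia, the dynein motors that bend it and the factors that assemble those motors. They were chosen by symbol alone: every Dnah, Dnaic, Dnai, Dnaaf, Drc, Rsph, Cfap, Tekt and Spef gene with a number, together with Dnali1, Spag6l, Spag16, Spag17, Hydin, Ak7 and Zmynd10. The rule found 64 of the 24498 genes of the table, and no expression value entered it, although the set was proposed with earlier results of these data known. Of the 64, 62 passed the filter on low values and were tested; Rsph14 and Rsph6a did not pass. Another 8 members, Cfap100, Cfap221, Cfap58, Cfap73, Dnah7a, Spag17, Tekt3 and Tekt5, passed only because of the libraries with the highest FoxA2 signal, so their tests against lower gates had to lean towards a difference.

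The study sorted cells of mouse embryos at embryonic day 7.5 and read their RNA in 18 libraries, 3 for each of 6 groups. Every embryo carried FoxA2 fused to the red fluorescent protein tagRFP on both alleles, and FoxA2 is a forkhead factor of endoderm, node and notochord. In ΔHx embryos an α-helix of 10 amino acids had been deleted from the fused protein, and in WT embryos it was intact, so both genotypes carried the tag and neither was an unmodified animal. Cells were gated by tagRFP into High, brighter than any heterozygous cell, Mid, from above autofluorescence up to the heterozygous maximum, and Neg, without signal. The 6 groups were therefore ΔHx High, ΔHx Mid, ΔHx Neg, WT High, WT Mid and WT Neg. The mice had a mixed C57Bl6/J and CD-1 background, the dams had been superovulated with gonadotropins, about 10 embryos of unrecorded sex were pooled for a sort, and the extra-embryonic portion had been cut away. Because the gates were drawn on the fusion protein itself, a gate in ΔHx and the same gate in WT held cells chosen by fluorescence alone. These need not be equally bright within the gate, nor the same kinds of cells.

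A motile cilium is a cylinder of microtubule doublets. Outer and inner dynein arms on each doublet slide it along its neighbour, the nexin-dynein regulatory complex and the radial spokes govern those arms, and a central pair of microtubules with its projections runs through the middle of most motile cilia. At this stage the embryo's motile cilia are those of the node, single cilia on each cell whose rotation drives the leftward flow that sets left-right asymmetry, and they are classically described as lacking the central pair. In mice the forkhead factor Foxj1 and the factors Rfx2 and Rfx3, which bind X-box motifs, drive the transcription of motile cilia genes, and Noto acts above Foxj1 in the node.

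Promoters of the members were searched for a forkhead motif (TGTTTAC) and for X-box motifs, the elements that factors of the Foxj1 and Rfx families bind. RefSeq windows on GRCm38.p6 from 250 bases before to 50 bases after the gene start were found for 57 of the 64 members, in 64 windows of 300 bases, since some members have more than 1 start. The single X-box arm GTTGCCA, on either strand, was in 12 of 57 members, or 20.3% of member windows, against 4.38% of all 32851 windows of the genome. The forkhead motif was in 5 of 57 members, or 7.81% of member windows, against 3.65% of all windows. A stricter pair of X-box arms, GTTNCC and GGNAAC with 1 to 3 bases between, was in 0 of 57 members and in 0.776% of all windows; a single arm can overlap such a pair. These are counts of letters in a window, with no measurement of binding. The 6 stretches below, of 150 bases each up to the base before the start, are examples picked from the members with a motif. Drc1 (chr5:30281243-30281392, plus strand), Hydin (chr8:110266827-110266976, plus strand), Cfap161 (chr7:83794840-83794989, minus strand) and Cfap44 (chr16:44394649-44394798, plus strand) hold the single arm. Ak7 (chr12:105705832-105705981, plus strand) and Cfap43 (chr19:47837362-47837511, minus strand) hold the forkhead motif. Drc1 belongs to the nexin-dynein regulatory complex and Hydin to the central pair, and the rest share the class of other Cfap genes and Ak7. They are written 5′ to 3′ on the strand of the gene, and capitals mark the match, so TGGCAAC is the single arm and GTAAACA the forkhead motif read from the other strand.
Drc1: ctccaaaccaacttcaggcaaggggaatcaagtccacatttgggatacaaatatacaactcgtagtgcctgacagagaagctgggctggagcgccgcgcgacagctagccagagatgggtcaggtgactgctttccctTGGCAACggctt
Hydin: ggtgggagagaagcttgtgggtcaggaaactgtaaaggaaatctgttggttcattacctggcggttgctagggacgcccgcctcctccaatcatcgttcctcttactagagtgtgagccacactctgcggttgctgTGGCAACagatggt
Cfap161: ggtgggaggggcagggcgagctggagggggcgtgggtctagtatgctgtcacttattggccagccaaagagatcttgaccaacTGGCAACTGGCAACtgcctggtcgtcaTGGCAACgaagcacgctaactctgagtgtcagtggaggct
Cfap44: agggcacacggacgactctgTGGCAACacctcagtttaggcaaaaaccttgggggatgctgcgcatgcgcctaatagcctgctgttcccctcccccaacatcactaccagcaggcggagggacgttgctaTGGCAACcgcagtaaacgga
Ak7: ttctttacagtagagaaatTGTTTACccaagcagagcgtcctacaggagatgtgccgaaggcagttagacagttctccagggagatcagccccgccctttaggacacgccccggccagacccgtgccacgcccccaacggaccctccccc
Cfap43: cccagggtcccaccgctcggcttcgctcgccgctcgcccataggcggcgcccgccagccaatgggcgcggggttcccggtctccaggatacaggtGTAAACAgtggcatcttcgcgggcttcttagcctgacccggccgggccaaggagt
Cfap161 held 3 single arms, of which 2 stand side by side, and Cfap44 held 2. The other members with a single arm were Cfap20, Cfap58, Cfap74, Dnaaf2, Dnah10, Dnah7b, Tekt1 and Zmynd10, and the others with a forkhead motif were Cfap20, Dnah17 and Tekt3. Dnaaf2 and Dnah17 thus carried a motif although neither was called between any gates in WT embryos, as described below.

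The 64 members lay on 18 chromosomes with at most 8 on any of them. Within 200000 bases of each other were only the pairs Dnah7b and Dnah7c on chromosome 1, 52045 bases apart, and Cfap43 and Cfap58 on chromosome 19, on opposite strands and 18387 bases apart. These distances are between whole gene spans of the GENCODE M21 annotation. Its span of Cfap43 reaches to 47919287, beyond the RefSeq start used for the promoter above, so that start lies farther from Cfap58. SMART-Seq2 libraries do not keep strand, and 21 members overlap another gene of the table when whole gene spans, introns included, are compared. Reads in any exons that such genes share cannot be told apart by strand, and overlap of exons was not counted. Reads of the near-identical Dnah7a, Dnah7b and Dnah7c, and of Rsph3a and Rsph3b, could be split or lost between copies, and their values are uncertain.

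Libraries held 12302196 to 17194136 reads in genes and detected 15649 to 17917 genes; ΔHx High replicate 3 detected the fewest. Foxa2, the targeted gene, had normalised read counts of 1848, 2078 and 2385 in ΔHx High, against 2483, 1742 and 1556 in WT High. Mid cells of ΔHx held 547, 611 and 1229, against 871, 812 and 621 in those of WT, and Neg cells of ΔHx 62.5, 55.1 and 43.4, against 40.6, 20.3 and 23.6 in those of WT. Its RNA follows the gates, and since ΔHx removes only a short internal stretch, the gene's count checks no genotype label. All values below are such counts, reads divided by a size factor per library, in the order of replicates 1, 2 and 3. A change is a difference of log2(value + 1) with its standard error. The labels call the replicates biological without saying what they shared, so the p-values measure the spread between these libraries, which may in part be technical. In sorted pools, fewer ciliated cells and less RNA in each cell cannot be told apart.

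Most members were high in High cells, low in Mid cells and close to nothing in Neg cells, in both genotypes. In ΔHx High against ΔHx Neg, 56 of 62 tested members were called higher and 0 lower, with a median log2 change of 4.32, where over all 14711 tested genes 21.5% were called higher and 21.1% lower and the median was 0.01. In WT High against WT Neg the members gave 55 higher and 0 lower and a median of 4.98, where 22.6% of all genes were higher and 21.8% lower and the median was 0.02. The 62 tested members, here and in the steps below, include the 8 that passed the filter only because of High libraries. Counted over all 64 members, tested or not, the 3 ΔHx High libraries all lay above the 3 ΔHx Neg libraries for 60 and below them for 1, Dnaaf2, so that 95.3% did not overlap, against 54.7% of all tested genes in either direction. The 3 WT High libraries lay above the 3 WT Neg libraries for 59 and below them for 0, or 92.2%, against 54.7% of all tested genes.

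**Figure D1:**
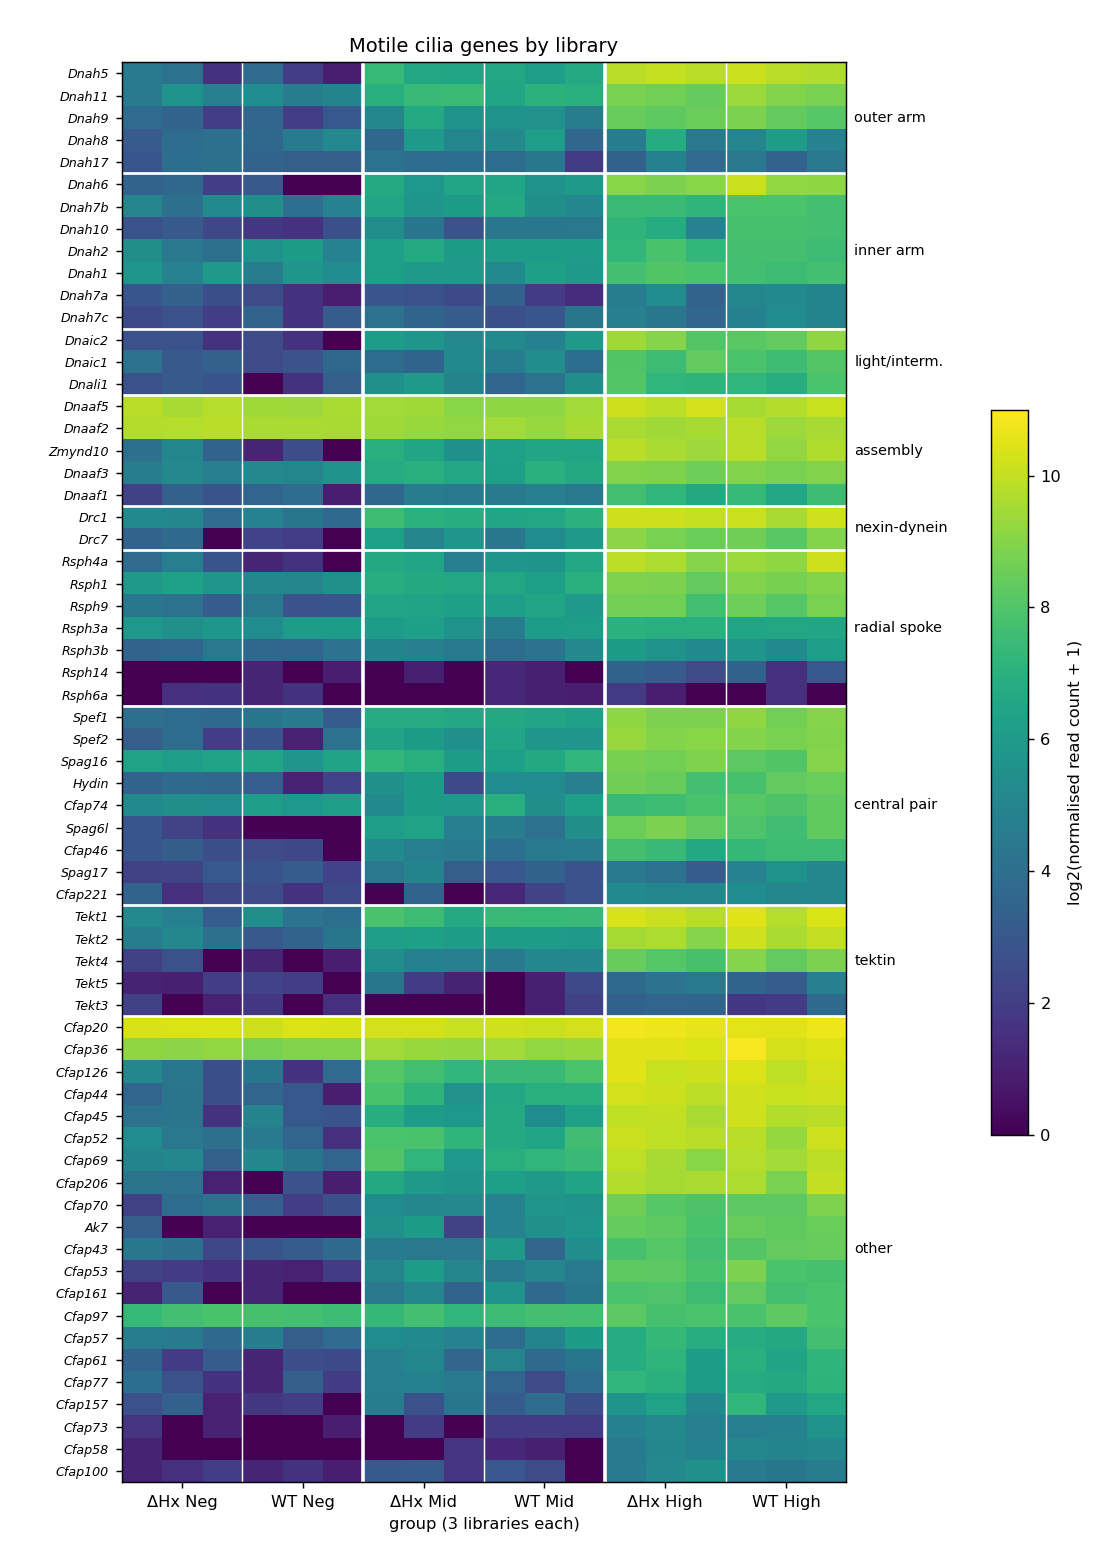
Normalised read counts of the 64 members, on a log2(value + 1) colour scale, with a row per gene in blocks by role and a column per library in the order ΔHx Neg, WT Neg, ΔHx Mid, WT Mid, ΔHx High and WT High. Most rows brighten from Neg through Mid to High alike in both genotypes, and 5 rows, Cfap20, Cfap36, Cfap97, Dnaaf2 and Dnaaf5, are bright in every column.

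Mid cells stood between the others. Against Neg, 35 of 62 members were called higher and 2 lower in ΔHx Mid, where 17.9% of all genes were higher and 16.5% lower, and 38 were higher and 0 lower in WT Mid, where 17.4% were higher and 15.4% lower. Against Mid, 54 members were higher and 0 lower in ΔHx High, where 13.3% of all genes were higher and 12.3% lower, and 56 were higher and 0 lower in WT High, where 12.1% were higher and 12.4% lower. The 2 members lower in ΔHx Mid than in ΔHx Neg were the assembly factors Dnaaf2 and Dnaaf5. The Mid gate was also where genes of visceral endoderm peaked: the 8 genes of that list (Ttr, Afp, Apoa1, Apob, Hnf4a, Cubn, Amn and Rbp4) summed to 805 to 2085 in ΔHx Neg, 39966 to 45312 in ΔHx Mid and 1475 to 4764 in ΔHx High. In WT the sums were 1392 to 1544 in Neg, 36517 to 44502 in Mid and 3012 to 7887 in High, and their part in the members' levels was not tested. In the step from Neg to High, 7 of 7 node and notochord genes in the table and 7 of 8 definitive endoderm genes were called higher in each genotype, with node medians of 4.94 in ΔHx and 4.78 in WT, while 6 of 6 genes of lateral and extra-embryonic mesoderm were called lower in each.

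Setting aside 5 members that were broadly expressed (Cfap20, Cfap36, Cfap97, Dnaaf2 and Dnaaf5, each with a mean of at least 100 in WT Neg, a division made after the values were seen), the values of the other 59 were summed in each library. In Neg cells the sum was 993.4, 966.7 and 695 in ΔHx and 852, 667 and 712 in WT. Mid cells had 4185, 3660.5 and 2567 in ΔHx and 2858, 2853 and 3317 in WT. High cells had 23303, 21384 and 17814 in ΔHx and 23761, 18111 and 23999 in WT. The gates did not overlap in either genotype, and the genotypes overlapped in every gate. Mean sums in High were 6.00 times those in Mid in ΔHx and 7.30 times in WT, and 23.5 times those in Neg in ΔHx and 29.5 times in WT.

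**Figure D2:**
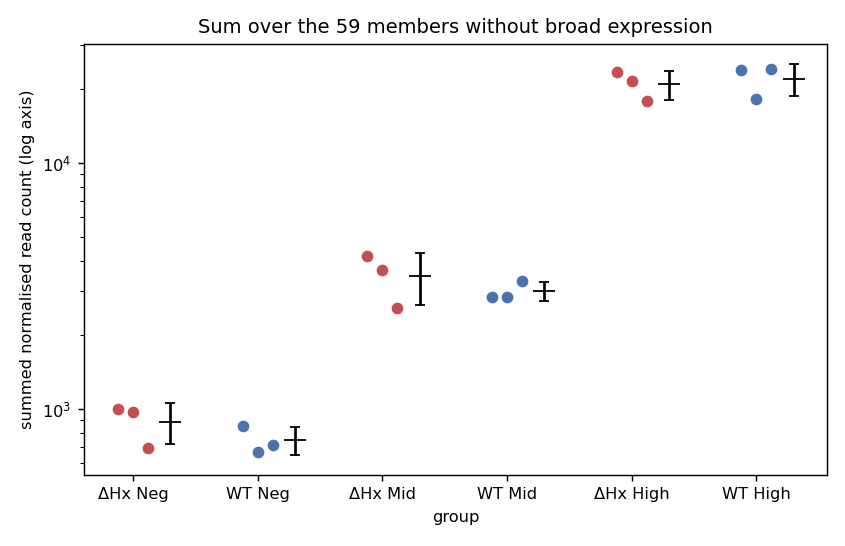
Summed normalised read counts of the 59 members that were not broadly expressed, on a log axis, with a point per library and, beside the points, a black mark for the group mean with its SD. From Neg through Mid to High the points climb without overlap between gates, and within a gate the ΔHx and WT points overlap.

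In 4 of the 6 groups 1 library was the lowest for most members. In ΔHx High, replicate 3 was the lowest of the 3 libraries for 41 of the 59 members, and in WT High replicate 2 was the lowest for 38. In ΔHx Mid and ΔHx Neg, replicate 3 was the lowest for 39 and 33. In WT Mid no library stood apart, with 21, 18 and 20 members lowest in replicates 1, 2 and 3, and in WT Neg the counts were 10, 21 and 22.

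Outer dynein arms are built on heavy chains, and in mice Dnah5, Dnah9 and Dnah11 serve cilia; Dnah11 is the gene mutated in the inversus viscerum mouse, whose left-right axis is randomised. Dnah5 had 930.4, 1032 and 897 in ΔHx High and 1109, 900.2 and 836 in WT High, against 22.3, 16.8 and 2.06 in ΔHx Neg and 13.5, 3.04 and 0.906 in WT Neg. Dnah11 had 444, 403 and 333 in ΔHx High and 658, 489 and 446 in WT High, against 21.2, 47.6 and 26.8 in ΔHx Neg and 39.4, 23.3 and 29.0 in WT Neg. Dnah9 had 346, 312 and 359.5 in ΔHx High and 460.3, 329 and 278 in WT High, against 13.4, 10.3 and 3.10 in ΔHx Neg and 11.1, 3.04 and 7.25 in WT Neg. All 6 High libraries lay far above all 6 Neg libraries for these 3 genes. Between WT High and WT Neg they rose by 7.61 ± 0.63 (adjusted p = 1.24e-08), 4.09 ± 0.29 (adjusted p = 1.64e-09) and 5.56 ± 0.50 (adjusted p = 3.5e-08) for Dnah5, Dnah11 and Dnah9. In Mid cells both lay between Neg and High: Dnah11 had 117, 171 and 179 in ΔHx Mid and 87.7, 135 and 117 in WT Mid, and Dnah5 had 167, 92.6 and 86.7 in ΔHx Mid and 93.2, 69.7 and 104 in WT Mid.

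The other outer arm heavy chains, Dnah8 and Dnah17, are known from sperm, and neither was called between any gates in either genotype. Dnah8 had 23.7, 111 and 19.8 in ΔHx High and 31.2, 66.4 and 28.4 in WT High, against 7.81, 14.0 and 15.5 in ΔHx Neg and 12.3, 22.3 and 35.3 in WT Neg. Dnah17 had 9.65, 27.2 and 13.2 in ΔHx High and 20.4, 10.0 and 19.5 in WT High, against 6.70, 14.9 and 15.5 in ΔHx Neg and 9.85, 9.13 and 9.06 in WT Neg. High and Neg libraries of Dnah8 overlapped in WT and did not in ΔHx, and those of Dnah17 overlapped in ΔHx and, narrowly, did not in WT. The ΔHx changes were 1.57 ± 0.71 for Dnah8 (adjusted p = 0.0811) and 0.36 ± 0.59 for Dnah17 (adjusted p = 0.66), and the WT changes of 0.83 ± 0.71 for Dnah8 (adjusted p = 0.361) and 0.71 ± 0.59 for Dnah17 (adjusted p = 0.352) were not called. Outer arm chains called higher in High than in Neg were thus 3 of 5 in ΔHx and 3 of 5 in WT.

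Inner arm heavy chains rose in High cells in all 7 cases in WT and in 6 of 7 in ΔHx. Dnah6, the strongest of them, had 532, 453 and 527 in ΔHx High and 1107, 588 and 558 in WT High, against 10.0, 12.1 and 3.10 in ΔHx Neg and 7.39, 0 and 0 in WT Neg, and the WT change was 8.46 ± 0.62 (adjusted p = 2.36e-09). Dnah2 and Dnah1 kept more RNA outside the High gate. Dnah2 had 153, 231 and 157 in ΔHx High and 215, 212 and 186 in WT High, against 42.4, 19.6 and 15.5 in ΔHx Neg and 49.3, 61.9 and 28.1 in WT Neg. Dnah2 rose by 2.18 ± 0.34 in WT (adjusted p = 4.15e-05). Dnah1 had 209, 254 and 234 in ΔHx High and 204, 183 and 211 in WT High, against 52.5, 28.0 and 60.9 in ΔHx Neg and 23.4, 52.7 and 38.9 in WT Neg. Dnah1 rose by 2.42 ± 0.33 in WT (adjusted p = 7.41e-06). Dnah7b rose by 3.06 ± 0.40 in WT (adjusted p = 5.17e-06), and its copies Dnah7a and Dnah7c reached at most 38.0 and 39.1 in any library. The inner arm chain not called in ΔHx was Dnah7a, which had 23.7, 38.0 and 9.90 in ΔHx High against 6.70, 9.33 and 5.16 in ΔHx Neg (log2 change 1.47 ± 0.61, adjusted p = 0.0604). Dnah7a, counted as called in WT, passed the filter only because of High libraries.

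Intermediate and light chains anchor the arms, and the 3 members of this class rose in both genotypes. Dnaic2, an outer arm intermediate chain, had 689, 518 and 262 in ΔHx High and 293, 326 and 572 in WT High, against 5.58, 5.60 and 2.06 in ΔHx Neg and 4.93, 2.03 and 0 in WT Neg. Dnaic2 rose by 7.18 ± 0.55 in WT (adjusted p = 4.86e-09). Its partner Dnaic1 had 260.4, 184 and 329.9 in ΔHx High and 235, 188 and 269 in WT High, against 16.7, 7.46 and 9.29 in ΔHx Neg and 4.93, 6.08 and 11.8 in WT Neg. Dnaic1 rose by 4.82 ± 0.48 in WT (adjusted p = 1.37e-07). Dnali1, a light intermediate chain of inner arms, had 265, 149 and 142 in ΔHx High and 151, 116 and 238 in WT High, against 5.58, 7.46 and 6.19 in ΔHx Neg and 0, 2.03 and 9.06 in WT Neg. Dnali1 rose by 5.70 ± 0.63 in WT (adjusted p = 5.84e-07). High and Neg did not overlap for any of the 3, whereas the genotypes overlapped in High for each.

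Assembly factors fold and join dynein arms in the cytoplasm before they enter the cilium, and they split into those that followed the gates and those that did not. Zmynd10 had 916, 772 and 664 in ΔHx High and 897, 588 and 813 in WT High, against 15.6, 31.7 and 10.3 in ΔHx Neg and 1.23, 5.07 and 0 in WT Neg. Zmynd10 rose by 8.31 ± 0.50 in WT (adjusted p = 2.17e-10). Dnaaf3 had 475, 461 and 376 in ΔHx High and 481, 441 and 487 in WT High, against 23.4, 35.5 and 25.8 in ΔHx Neg and 35.7, 32.4 and 48.0 in WT Neg. Dnaaf3 rose by 3.58 ± 0.23 in WT (adjusted p = 5.79e-10). Dnaaf1 rose by 4.35 ± 0.60 in WT (adjusted p = 9.05e-06). By contrast Dnaaf2, which works with the Hsp90 chaperone, had 848, 876 and 924 in ΔHx Neg, 680.2, 632 and 586 in ΔHx Mid and 766, 682 and 746 in ΔHx High. WT Neg libraries had 781, 769 and 753, WT Mid libraries 708, 625 and 749, and WT High libraries 909, 666 and 762. Dnaaf2 was nearly level over the gates of WT, where High differed from Neg by 0.01 ± 0.11 (95% interval -0.23 to 0.25, adjusted p = 0.951). In ΔHx it was lower in Mid than in Neg, with a log2 change of -0.48 ± 0.11 (adjusted p = 0.003), with no overlap between those libraries. Dnaaf5, known as Heatr2, had 1144, 969.9 and 1203 in ΔHx High and 724, 856 and 1090.2 in WT High, against 932, 747 and 874 in ΔHx Neg and 698, 667 and 781 in WT Neg, and the WT change of 0.30 ± 0.16 (adjusted p = 0.134) was not called. That change was called with equal totals without Rn45s (0.41, adjusted p = 0.0322) and without WT High replicate 1 (0.44, adjusted p = 0.0437). Dnaaf5 was lower in ΔHx Mid than in ΔHx Neg, with a log2 change of -0.41 ± 0.16 (adjusted p = 0.049), a call that was lost without ΔHx Mid replicate 3 (-0.27, adjusted p = 0.241) and in several other settings.

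Drc1 and Drc7, the members taken from the nexin-dynein regulatory complex that links doublets, rose in both genotypes. Drc1, which scaffolds the complex, had 1145, 1141 and 1052 in ΔHx High and 1121, 754 and 1182 in WT High, against 38.0, 34.5 and 13.4 in ΔHx Neg and 28.3, 18.3 and 12.7 in WT Neg. Drc1 rose by 5.66 ± 0.34 in WT (adjusted p = 2.18e-10). Drc7 had 538, 447 and 369 in ΔHx High and 397, 293 and 503 in WT High, against 10.0, 13.1 and 0 in ΔHx Neg and 3.70, 3.04 and 0 in WT Neg. Drc7 rose by 7.19 ± 0.76 in WT (adjusted p = 3.17e-07). Drc1 fell between the gates in Mid cells, with 194, 131 and 114 in ΔHx Mid and 86.3, 95.5 and 134 in WT Mid.

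Radial spokes carry signals from the central pair to the dynein arms. Of the 5 tested members of this class, 5 were called higher in ΔHx High than in ΔHx Neg and 4 in WT High than in WT Neg. Rsph4a, a subunit of the spoke head, had 949, 809.6 and 519 in ΔHx High and 659, 563 and 1129 in WT High, against 13.4, 25.2 and 6.19 in ΔHx Neg and 1.23, 2.03 and 0 in WT Neg. WT High held 2443 reads of Rsph4a and WT Neg 3, a ratio of 772 with a 95% counting interval of 264 to 3746. Rsph1 and Rsph9, further head subunits, rose by 3.65 ± 0.23 (adjusted p = 2.89e-10) and 5.11 ± 0.41 (adjusted p = 9.5e-09) in WT. Rsph1 had 461, 451 and 323 in ΔHx High and 482, 425 and 503 in WT High, against 61.4, 77.4 and 55.7 in ΔHx Neg and 34.5, 31.4 and 44.4 in WT Neg. Rsph3a, a stalk subunit, was the weakest: it had 128, 117 and 127 in ΔHx High and 88.7, 92.8 and 86.9 in WT High, against 56.9, 44.8 and 55.7 in ΔHx Neg and 38.2, 64.9 and 67.0 in WT Neg. It was called in ΔHx (1.23 ± 0.35, adjusted p = 0.00757) and not in WT (0.69 ± 0.35, adjusted p = 0.116), and the difference between genotypes in this step was not called either. Rsph14 stayed low, with 9.65, 8.15 and 4.95 in ΔHx High and 9.59, 1.82 and 7.09 in WT High, and Rsph6a, a gene of testis in mice, reached at most 2.63 in any library.

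All 9 central pair genes were called higher in High than in Neg in both genotypes, of which Spag17 and Cfap221 were low and would not have passed the filter without High libraries. Spef2 had 623, 502 and 529 in ΔHx High and 499.9, 435 and 476 in WT High, against 8.93, 14.0 and 3.10 in ΔHx Neg and 6.16, 1.01 and 16.3 in WT Neg. Spef2 rose by 6.22 ± 0.56 in WT (adjusted p = 3.8e-08). Spef1, a microtubule-bundling protein, had 557, 453 and 451 in ΔHx High and 578, 401 and 509.6 in WT High, against 15.6, 14.0 and 12.4 in ΔHx Neg and 18.5, 21.3 and 8.15 in WT Neg. Spef1 rose by 4.96 ± 0.28 in WT (adjusted p = 1.24e-10). Spag16 had 432, 408 and 465 in ΔHx High and 299, 255 and 507 in WT High, against 82.6, 68.1 and 79.5 in ΔHx Neg and 91.1, 51.7 and 81.5 in WT Neg. Spag16 rose by 2.20 ± 0.32 in WT (adjusted p = 1.48e-05). These 3 genes did not overlap between High and Neg, although Spag16 kept a clear level in Neg cells. Hydin, which forms a projection of the central pair and whose loss causes hydrocephalus in mice, had 387, 342 and 207 in ΔHx High and 221, 327 and 361 in WT High, against 10.0, 13.1 and 11.4 in ΔHx Neg and 8.62, 1.01 and 3.62 in WT Neg. The WT change of Hydin was 6.05 ± 0.67 (adjusted p = 5.48e-07). Spag6l had 367, 450.1 and 322 in ΔHx High and 247, 198 and 322 in WT High, against 6.70, 3.73 and 2.06 in ΔHx Neg and 0 in all 3 WT Neg libraries, so WT High was at least 81.1-fold higher when WT Neg is set to a floor of 3 reads in each library. Spag17 was low throughout, with 21.0, 16.3 and 8.25 in ΔHx High and 28.8, 48.2 and 32.8 in WT High.

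Tektins are filament proteins inside the doublets. Tekt1 had 1276, 1124 and 904 in ΔHx High and 1399, 883 and 1346 in WT High, against 35.7, 26.1 and 8.26 in ΔHx Neg and 41.9, 17.2 and 14.5 in WT Neg. Tekt1 rose by 5.69 ± 0.42 in WT (adjusted p = 2.93e-09). Tekt2 had 733, 811 and 519 in ΔHx High and 1166, 769 and 1029.9 in WT High, against 23.4, 34.5 and 15.5 in ΔHx Neg and 7.39, 10.1 and 18.1 in WT Neg. Tekt2 rose by 6.33 ± 0.31 in WT (adjusted p = 1.51e-11), the lowest adjusted p of any member in that comparison. Tekt4 had 344, 269.9 and 220.2 in ΔHx High and 514, 327 and 448 in WT High, against 3.35, 5.60 and 0 in ΔHx Neg and 1.23, 0 and 0.906 in WT Neg. WT High held 1293 reads of Tekt4 and WT Neg 2, a ratio of 613 (95% counting interval 169 to 5066). Tekt3 and Tekt5, known from sperm, were rare: Tekt3 had 9.65, 10.9 and 10.7 in ΔHx High and 2.40, 2.73 and 12.4 in WT High, and Tekt5 had 13.2, 17.2 and 20.6 in ΔHx High and 10.8, 8.19 and 26.6 in WT High. In Neg, Tekt3 had 3.35, 0 and 1.03 in ΔHx and 2.46, 0 and 1.81 in WT. Its WT change of 1.375 (adjusted p = 0.184) was not called. Tekt5 had 1.12, 0.933 and 3.10 in ΔHx Neg and 3.70, 3.04 and 0 in WT Neg. Its WT change of 2.43 was called (adjusted p = 0.0266), but not without WT High replicate 3 (adjusted p = 0.111) or WT Neg replicate 3 (adjusted p = 0.147). Nor was it called with quantile normalisation (adjusted p = 0.0604).

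Among the other Cfap genes and Ak7, 20 of 21 were called higher in High than in Neg in ΔHx and 20 of 21 in WT, Cfap97 being outside the calls in both. Of the 20, Cfap100, Cfap58 and Cfap73 passed the filter only because of High libraries. Cfap126, a protein of the basal body and cilium known as Flattop, had 1439.9, 1083 and 1140.5 in ΔHx High and 1359, 983 and 1243 in WT High, against 33.5, 18.7 and 5.16 in ΔHx Neg and 18.5, 2.03 and 13.6 in WT Neg. Cfap126 rose by 6.96 ± 0.55 in WT (adjusted p = 7.97e-09). Cfap44, part of the tether of an inner arm dynein in Chlamydomonas and Tetrahymena, had 1218, 1140.2 and 949 in ΔHx High and 1184, 1067 and 1168 in WT High, against 11.2, 17.7 and 5.16 in ΔHx Neg and 11.1, 7.10 and 0.906 in WT Neg. Cfap44 rose by 7.64 ± 0.56 in WT (adjusted p = 2.66e-09). Ak7, an adenylate kinase, had 337, 312 and 226 in ΔHx High and 344, 316 and 359.8 in WT High, against 8.93, 0 and 1.03 in ΔHx Neg and 0 in all 3 WT Neg libraries, which makes WT High at least 108-fold higher at the same floor. High and Neg stood far apart for each of these genes. Cfap20, a protein of the doublet's inner junction that is found in many cells, changed little: it had 1774, 1686 and 1521 in ΔHx High and 1499.7, 1470.0 and 1708 in WT High, against 1306, 1329 and 1313 in ΔHx Neg and 1131, 1356 and 1278 in WT Neg. The WT change of Cfap20 was 0.31 ± 0.10 (adjusted p = 0.0127), and it was lost without WT High replicate 3 (0.25, adjusted p = 0.0648) or WT Neg replicate 1 (0.24, adjusted p = 0.0756). Cfap36 lay between these extremes with 1467, 1473 and 1342 in ΔHx High and 1888, 1234 and 1380.0 in WT High, against 579, 541 and 593 in ΔHx Neg and 446, 484 and 503 in WT Neg. Cfap36 rose by 1.63 ± 0.13 in WT (adjusted p = 7.38e-09). Cfap97 had 298, 219 and 233 in ΔHx High and 230.2, 309 and 234 in WT High, against 164, 212 and 227 in ΔHx Neg and 220.5, 211 and 189 in WT Neg (WT change 0.31 ± 0.19, adjusted p = 0.199). The remaining members of this class had WT changes between those of Cfap57, 3.11 ± 0.47, and Cfap206, 8.22 ± 0.69.

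How steep the gradient was differed between members. Over the 57 tested members that were not broadly expressed, the mean in Mid was a median of 17.1% of that in High in ΔHx and 12.4% in WT, and the mean in Neg was 4.16% of High in ΔHx and 2.20% in WT. The means stood in the order High, Mid, Neg in 52 of the 57 in ΔHx and in 54 of the 57 in WT. Within High, the coefficient of variation between the 3 libraries had a median of 18.7% in ΔHx and 22.1% in WT. With a mean of at least 100, 5, 17 and 48 of the 64 members were counted in ΔHx Neg, ΔHx Mid and ΔHx High, and 5, 13 and 49 in WT Neg, WT Mid and WT High.

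Read counts favour long genes, so levels between genes were compared per kilobase of exon, with each gene's exons merged on the GENCODE M21 annotation. By this measure the most abundant members in High cells were Tekt1, with 679 ± 115 per kb in ΔHx High and 746 ± 175 in WT High (SD, n = 3), and Cfap126, with 688 ± 108 and 674 ± 109 per kb in ΔHx High and WT High. Cfap36 followed with 520 ± 27.0 per kb in ΔHx High and 547 ± 125 in WT High. Cfap52, a protein of the doublet lumen, had 434 ± 46.5 per kb in ΔHx High and 394 ± 123 in WT High, and Tekt2 had 362 ± 79.6 in ΔHx High and 520 ± 106 in WT High. Drc1 came to 415 ± 19.6 per kb in ΔHx High and 380 ± 86.4 in WT High, and Zmynd10 to 368 ± 59.3 in ΔHx High and 360 ± 75.0 in WT High. Tekt1 and Cfap126 differed by less than their SDs in both genotypes. In WT High, Cfap52, Drc1 and Zmynd10 differed from each other by less than their SDs. Heavy chains, with 12603 to 26820 bases of exon, had far lower counts per kb. The 12 heavy chains had a median of 10.3 per kb in ΔHx High and 13.6 in WT High. The other 52 members had 77.3 per kb in ΔHx High and 81.0 in WT High. Merged exons can overstate the length of a transcript: Dnah7b had 19980 bases and its near-identical copy Dnah7a 12767. How evenly reads covered such long transcripts was not tested, so a lower RNA level of heavy chains is not shown. Among heavy chains Dnah5 led with 61.0 ± 4.51 per kb in ΔHx High and 60.6 ± 9.13 in WT High, and Dnah17 was lowest with 1.03 ± 0.57 per kb in ΔHx High and 1.03 ± 0.36 in WT High.

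**Figure D3:**
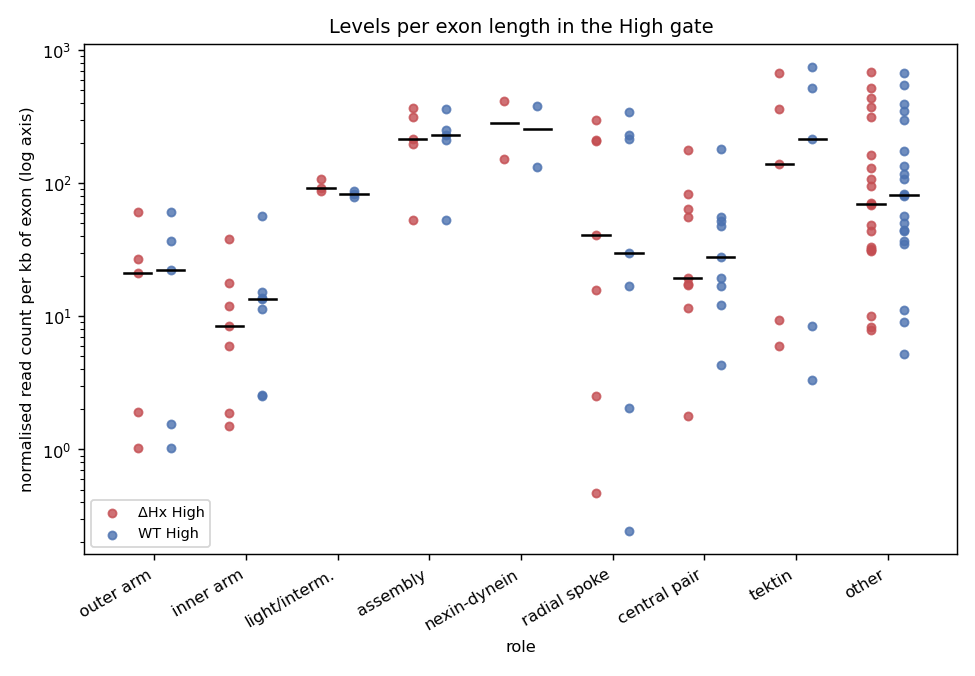
Level per kilobase of exon in High cells, on a log axis, for each member by role, with ΔHx to the left of WT in each role, a point per gene at the mean of 3 libraries and a line at the median of the role. Outer and inner arm heavy chains reach no more than about 61 per kb, for Dnah5, and the highest tektin, Tekt1, reaches 679 in ΔHx High and 746 in WT High. The lowest point is the radial spoke gene Rsph6a, at 0.47 in ΔHx High and 0.24 in WT High.

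The genotypes were compared within each gate, to see whether these genes differed between embryos with and without the α-helix. In High cells no member differed by the test: of 62 members 0 were called higher and 0 lower in ΔHx High than in WT High by limma, edgeR or DESeq2, where 0.0612% of all genes were called higher and 0.0612% lower, and 2 members had an unadjusted p under 0.05 by limma, 4 by edgeR and 4 by DESeq2. The median log2 change of the members was -0.06, with 22 above 0 and 40 below, and without ΔHx High replicate 3 the median was 0.03. Over all alternative settings the median ran from -0.19 to 0.03. The bounds were not tight, since the 95% interval of a single member reached a median of 1.11 to each side of its estimate on the log2 scale, against 0.48 over all genes. These intervals rest on 1 spread per gene shared by all 6 groups. Scatter between Neg libraries near 0 thus enters them, and they do not measure the spread within High alone. The lowest p belonged to Dnah10, an inner arm heavy chain, with 147, 111 and 28.0 in ΔHx High and 223, 218 and 208 in WT High. All 3 ΔHx High libraries of Dnah10 lay below all 3 of WT High, but the change of -1.47 ± 0.61 (adjusted p = 0.55) was not called, and without ΔHx High replicate 3 it was -0.75 (adjusted p = 0.996). Spag17 came next, with a change of -1.27 ± 0.53 (adjusted p = 0.55), and its libraries, given above, did not overlap either. The groups did not overlap for 10 of 62 members (16.1%), 3 with ΔHx above and 7 with ΔHx below, against 10.9% of all genes. Beside this, 1 of 6 genes of nascent and paraxial mesoderm was called higher in ΔHx High and 0 of 7 node and notochord genes changed by the test, and their part in the members' values was not tested.

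The width of the interval in High varied between members. It was narrow for members with high levels in every gate: Cfap20 differed by 0.09 ± 0.10 and Cfap36 by -0.05 ± 0.13. Dnaaf3, which was called between gates, differed by -0.11 ± 0.23 (adjusted p = 0.938) and Drc1 by 0.15 ± 0.34. It was wide for Dnah5, at 0.02 ± 0.63, and Hydin, at 0.03 ± 0.67, and none of these was called. The width for Dnah5 includes scatter from Neg, where its libraries ran from 0.906 to 22.3. Within High its coefficient of variation was 7.39% in ΔHx and 15.1% in WT. The 95% interval of Dnaaf3 ran from -0.60 to 0.38 and that of Drc1 from -0.56 to 0.87 on the log2 scale, so changes beyond these sizes lie outside them.

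In Mid cells the result was alike. Of 62 members 0 were called higher and 0 lower in ΔHx Mid than in WT Mid by limma, edgeR or DESeq2, where 0.0748% of all genes were called higher and 0.326% lower, and 3 members had an unadjusted p under 0.05 by limma, 4 by edgeR and 4 by DESeq2. The median was 0.13, with 40 above 0 and 22 below. Cfap77, a doublet protein, had the lowest p with 26.1, 27.3 and 22.8 in ΔHx Mid and 11.0, 4.78 and 13.9 in WT Mid. Its ΔHx libraries all lay above those of WT, and the change of 1.38 ± 0.60 (adjusted p = 0.548) was not called. Cfap77 was the only one of the 62 members whose groups did not overlap (1.61%), against 10.9% of all genes. In the same comparison 7 of the 8 genes of the parietal endoderm list (Lama1, Col4a1, Col4a2, Sparc, Sox7, Nid1, Lamb1 and Thbd) were called lower in ΔHx Mid, with a summed level of 15746 to 21522 in ΔHx Mid and 38039 to 226747 in WT Mid. The top of that range was WT Mid replicate 1: Lama1, a laminin chain, had 1141, 1010.2 and 1432 in ΔHx Mid and 30072, 4065 and 7011 in WT Mid. The part of these genes in the members' values was not tested.

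**Figure D4:**
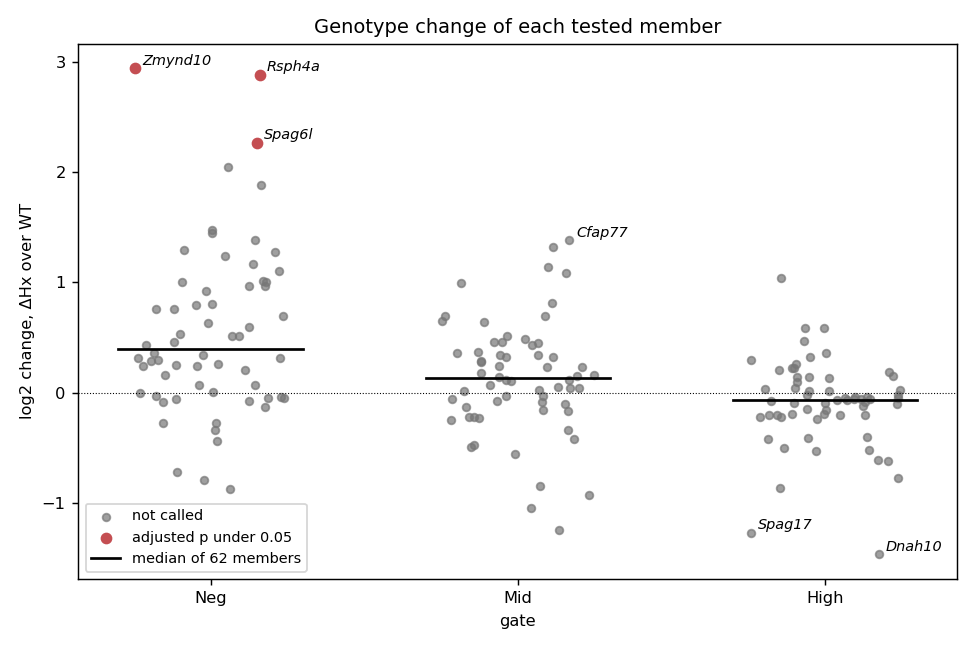
Log2 change between ΔHx and WT of each tested member in Neg, Mid and High cells, with a point per member, called members in red and a line at the median of the 62. Points centre near 0 in High and Mid, and in Neg the 3 called members, Zmynd10, Rsph4a and Spag6l, stand above 2.

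In Neg cells 3 of 62 members were called higher in ΔHx Neg than in WT Neg and 0 lower, where 0.136% of all genes were higher and 0.109% lower. They were Zmynd10, Rsph4a and Spag6l, an assembly factor, a spoke head subunit and a central pair protein, all near the limit of detection in WT Neg. Zmynd10 had 15.6, 31.7 and 10.3 in ΔHx Neg and 1.23, 5.07 and 0 in WT Neg, or 58 reads against 6, a change of 2.94 ± 0.50 (adjusted p = 0.0103). Rsph4a had 13.4, 25.2 and 6.19 in ΔHx Neg and 1.23, 2.03 and 0 in WT Neg, or 45 reads against 3, a ratio of 14.8 with a 95% counting interval of 4.76 to 74.6 and a change of 2.88 ± 0.53 (adjusted p = 0.0212). Spag6l had 6.70, 3.73 and 2.06 in ΔHx Neg and 0 in all 3 WT Neg libraries, or 12 reads against 0, at least 1.32-fold higher against the floor of 3 reads in each WT library (adjusted p = 0.0401). For all 3 genes every ΔHx Neg library lay above every WT Neg library. These levels are small beside those of High cells, where Zmynd10 had at least 664 in every ΔHx library.

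The 3 calls were not stable. By edgeR on the recovered reads the adjusted p was 0.117 for Zmynd10, 0.451 for Rsph4a and 0.571 for Spag6l, and by DESeq2 it was 0.0012, 0.0378 and 0.12. No member was called when only the 6 Neg libraries were fitted (Zmynd10 adjusted p = 0.175), nor without ΔHx Neg replicate 1, ΔHx Neg replicate 2 or WT Neg replicate 3. Over all 62 members the median change in Neg was 0.40 with 46 above 0 and 16 below, and 12 had an unadjusted p under 0.05. Over all 14711 tested genes the median was 0.01, with 7672 above 0 and 7027 below, and 614 had an unadjusted p under 0.05. Groups did not overlap for 10 of 62 (16.1%), 9 with ΔHx above and 1 with ΔHx below, against 12.7% of all genes.

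Of the node markers, Shh was also called higher in the Neg gate, and the others were not called. Shh, a signal of node and notochord, had 45.8, 54.1 and 20.6 in ΔHx Neg and 6.16, 0 and 0 in WT Neg, a change of 4.31 ± 0.62 (adjusted p = 0.00323). Noto had 30.1, 30.8 and 7.23 in ΔHx Neg and 16.0, 3.04 and 0.906 in WT Neg (adjusted p = 0.452), and Foxj1 had 107, 84.0 and 40.3 in ΔHx Neg and 71.4, 8.11 and 21.7 in WT Neg (adjusted p = 0.459). Foxa2 itself had no overlap, with 62.5, 55.1 and 43.4 in ΔHx Neg and 40.6, 20.3 and 23.6 in WT Neg (adjusted p = 0.405). Of the 7 node and notochord genes in the table (Noto, Shh, T, Chrd, Nog, Dand5 and Foxd4) 1 of 7 was called higher, the median change was 0.72 and none was at 0 in either group. Their summed level was 1774 to 3347 in ΔHx Neg and 1745 to 3390 in WT Neg. Most of it came from T, with 2297, 2916 and 1534 in ΔHx Neg and 3105, 1579 and 1688 in WT Neg. The overlap of the sums therefore says little about the other genes of the list. The part of the node genes in the result was not tested.

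**Figure D5:**
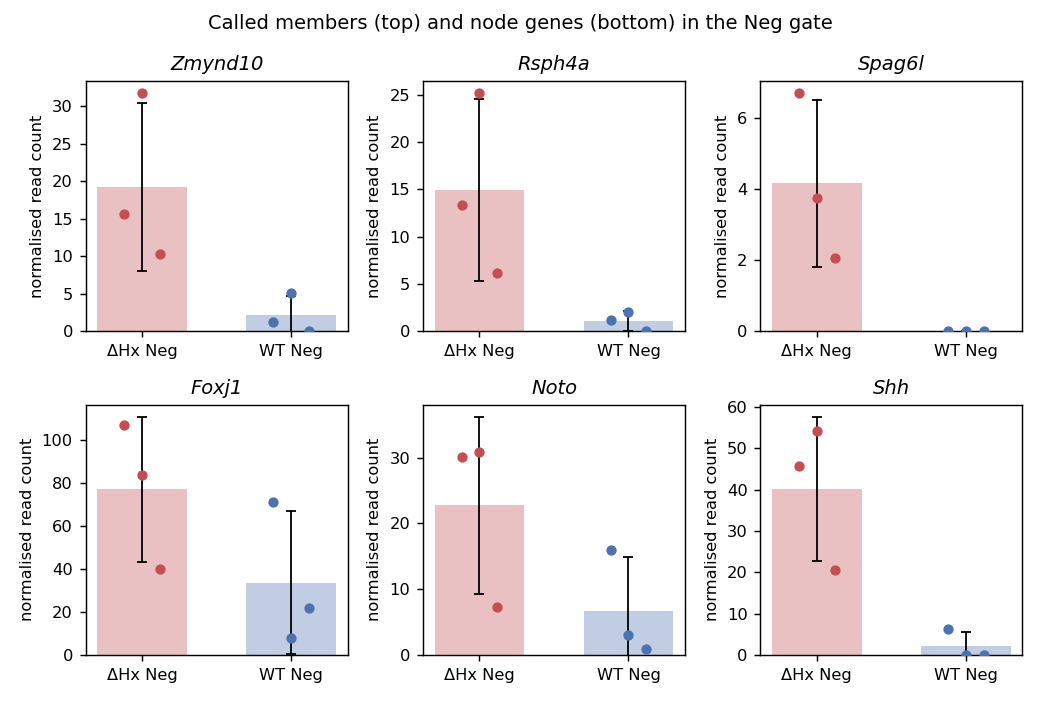
Normalised read counts in the Neg gate of the 3 called members, Zmynd10, Rsph4a and Spag6l, and of the regulators and node markers Foxj1, Noto and Shh, with a point per library, ΔHx Neg left of WT Neg, and bars for the mean and SD of 3 libraries. The ΔHx points lie above all WT points for Zmynd10, Rsph4a, Spag6l and Shh, and overlap them for Foxj1 and Noto.

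Whether the genotype effect differed between gates was tested directly. The difference of effects between High and Mid called 0 of 62 members, where 0.0136% of all genes were called in either direction, that between High and Neg called 0, where 0.0% were, and that between Mid and Neg called 0, where 0.0068% were. Unadjusted p-values under 0.05 were counted for 2, 8 and 3 members by limma and for 3, 9 and 7 by edgeR, which called 0 in each. Here, and for High and Mid above, such counts are given without the share over all genes, so none is read as a result. Zmynd10 came closest, with a genotype effect whose difference between High and Neg was -2.90 ± 0.71 (adjusted p = 0.879) and between Mid and Neg -3.02 ± 0.71 (adjusted p = 0.476). DESeq2 called Zmynd10 in both, with adjusted p of 0.0404 for High minus Neg and 0.0238 for Mid minus Neg. In the High and Mid comparison the lowest p was that of Spag17, at -2.41 ± 0.75 (adjusted p = 0.554).

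The known regulators followed the members. Foxj1 had 4464, 4486 and 4645 in ΔHx High and 6367, 3824 and 5177 in WT High, against 107, 84.0 and 40.3 in ΔHx Neg and 71.4, 8.11 and 21.7 in WT Neg. Rfx2 had 270.1, 286 and 153 in ΔHx High and 315, 293 and 293 in WT High, against 8.93, 12.1 and 12.4 in ΔHx Neg and 13.5, 8.11 and 12.7 in WT Neg. Rfx3, which was more widely expressed, had 1732, 1956 and 2245 in ΔHx High and 2935, 1944 and 2137 in WT High, against 633, 614 and 595 in ΔHx Neg and 728, 474 and 449 in WT Neg. Each was called higher in High than in Neg in both genotypes, by 7.67 ± 0.47, 4.63 ± 0.35 and 2.10 ± 0.17 in WT for Foxj1, Rfx2 and Rfx3. Of the 9 regulators listed 6 were called higher in High than in Neg in ΔHx and 6 in WT, and 0 were called between genotypes in any gate, although in High all 9 estimates were below 0 with a median of -0.23.

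Axonemal genes under other names gave a similar picture. Of 53 such genes in the table, 51 tested, 44 were called higher in ΔHx High than in ΔHx Neg (median 3.71) and 46 in WT High than in WT Neg (median 3.67), with 0 lower in either. Between genotypes 0 were called in High, Mid or Neg, with medians of 0.01, 0.07 and 0.13. The most abundant of them were housekeeping components shared with other microtubules and motors: Dynll1, a light chain of many dyneins, averaged 5591 ± 403 in ΔHx High and 5845 ± 229 in WT High, against 4851 ± 64.3 in ΔHx Neg and 5006 ± 334 in WT Neg (SD, n = 3). Tubb4b, a β-tubulin, averaged 5319 ± 208 in ΔHx High and 5468 ± 561 in WT High, against 5065 ± 198 in ΔHx Neg and 4938 ± 394 in WT Neg.

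The genes of a fixed list for multiciliation did not share the pattern. Of 11 in the table, 8 tested, 1 was called higher and 3 lower in ΔHx High than in ΔHx Neg, and 1 higher and 4 lower in WT High than in WT Neg. The one that rose was Ccno, with 695, 607 and 442 in ΔHx High and 1041, 741 and 780.0 in WT High, against 52.5, 50.4 and 13.4 in ΔHx Neg and 59.1, 32.4 and 47.1 in WT Neg. Gmnc and Mcidas, the factors that start multiciliation, averaged 0.275 and 9.14 in ΔHx High and 0.303 and 4.61 in WT High.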

How the data were processed

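RNA of 18 libraries was made with SMART-Seq2 from the RNA of 1000 sorted cells each and sequenced as single reads of 75 bases, per the labels' protocols. Per the submitters' processing notes the tools were STAR 2.5.2a, HTSeq 0.6.1, DESeq and DESeq2 with the build mm10. Which gene annotation was counted is not stated in the labels or headers. The authors deposited a signal per gene, its read count divided by a size factor for the library, for 24498 genes and 5 counter lines, which were left out of all tests. As shares of the reads in genes and the counter lines together, reads not uniquely aligned came to 37.7% to 41.3%. Ambiguous reads came to 0.495% to 0.756% and reads in no feature to 7.17% to 12.1% of the same total. Dividing each value by what 1 read was worth gave whole reads for 440964 of 440964 values within 1e-06, and 1 read was worth 0.825 to 1.37. Rn45s, a ribosomal RNA gene, held 23.7% to 44.0% of reads in genes.

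The filter required 3 or more libraries at 10 or above, which 14711 genes met. log2(value + 1) was fitted with limma 3.58.1 in R 4.3.3, in 1 model of the 6 groups, with two-sided tests, Benjamini-Hochberg adjustment over all genes tested and a threshold of 0.05. edgeR 4.0.16 and DESeq2 1.42.0 on the recovered reads, other pseudocounts, filters and scalings, a replicate block and leaving out each library were alternatives. The fit was tested on simulated data, with every group drawn at WT High levels and only ΔHx High against WT High compared. That simulation does not cover members near 0 in Neg cells. Ratios to groups with 3 reads or fewer carry an exact counting interval, or use a floor of 3 reads per library where the group is at 0; both cover counting error only. Genes named are up to 4 members with the highest WT High mean in each role, members called or with the lowest p between genotypes, members not called between WT High and WT Neg, and the regulators Foxj1, Rfx2, Rfx3 and Noto; others were chosen after their values were seen. The symbol rule used no values, but the members and lists were chosen with earlier results of these data known.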

Additional observations from a re-analysis of the deposited data

How the results depend on the processing

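The 3 calls between ΔHx Neg and WT Neg became 1 with a pseudocount of 5, 2 without a filter, with quantile normalisation or by DESeq2, and 0 by edgeR or when only the compared groups were fitted; leaving out 1 library gave 0 to 4. DESeq2 called 1 member for the difference of genotype effects between High and Neg and 1 for that between Mid and Neg, where limma called 0; the cause was not tested. Leaving out 1 library gave 0 to 0 calls for ΔHx against WT in High and in Mid and for the differences of effects, 53 to 57 for ΔHx High against Neg, 34 to 38 for ΔHx Mid against Neg and 46 to 53 for ΔHx High against Mid. In WT it gave 53 to 56, 35 to 39 and 52 to 56 for the same steps. Dnaaf2 between WT High and WT Neg, at 0.01, was -0.000649 with TMM factors, and from -0.11 without WT High replicate 1 to 0.12 without WT High replicate 2 when 1 library was left out, with -0.0036 without WT Neg replicate 3. Scaling to equal totals without Rn45s put the median of all genes at 0.13 between WT High and WT Neg, against 0.02 with the deposited scaling.

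The labels do not say what a replicate number shares. Between gates the library of the higher gate correlated best with its own number in 18 of 18 pairs. This is a hint of pairing, although r was low (0.0156 to 0.291). Pairs were scored from the higher gate only, so High libraries entered more than once and Neg libraries were not scored. Between genotypes the ΔHx library correlated best with its own number in 3 of 9 pairs (r -0.171 to 0.0820). With a replicate block the calls were 2 for ΔHx Neg against WT Neg, 58 for ΔHx High against ΔHx Neg and 55 for WT High against WT Neg. Members with few reads in Neg have the least depth behind their changes between gates.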
